A study of Mus musculus with 6 samples.

Results

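Long noncoding RNA genes were followed in TRAMP-C2, a line of prostate tumour cells from the mouse, after exposure to 2 platinum drugs. The genes were selected on their annotation and on their mean raw count over all 6 libraries, which had to reach 100. The annotation classes were lincRNA (68 genes), processed transcript (52), antisense (27), bidirectional promoter lncRNA (8) and sense intronic (2) of GENCODE release M21. This gave 157 of the 9649 genes of these classes in the table, which listed 54446 genes in all. Of the 9649 genes, 5122 had no count in any library. The last genes inside the limit were Gm12602 and Gm12840, with mean raw counts of 101 and 100, and the first outside were 1700048O20Rik (99.0) and F730043M19Rik (97.2). The classes are labels: several members, among them Cct6a, Ifi30, Tmem134 and Trerf1, carry the symbols of protein-coding genes but belong to a noncoding class in this release.

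Each of 3 groups held 2 libraries of poly(A) RNA from TRAMP-C2 cells, labelled as male and of strain C57BL/6. Control cells received no agent, oxaliplatin cells received 2 µM oxaliplatin and cisplatin cells 2 µM cisplatin, and RNA was taken at 24 h. All groups were grown in the same medium, which held bovine insulin and an androgen precursor (spelled dehydroisoantrosterone in the labels). Both drugs crosslink DNA, and they differ in that oxaliplatin carries a diaminocyclohexane ligand and an oxalate leaving group where cisplatin carries ammine and chloride ligands. Total counts were 21345312 to 24041767 per library. The cells are 1 line, and no label says that the libraries came from separate cultures, so p-values measure the spread between these libraries, which may be technical. In bulk RNA, fewer cells that express a gene and less RNA per cell cannot be told apart.

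The label of the line was set against marker genes. All 5 mesenchymal markers (Vim, Fn1, Col1a1, Col1a2, Twist1) were tested, with summed normalised counts of 319483 to 397903 per library. Pbsn, the gene of the prostate secretory protein probasin, had raw counts of 0 in all libraries. The epithelial genes Krt8, Krt18 and Cdh1 were present (619 to 851 in sum), Epcam and Cldn4 had at most 2 raw counts, and none of 5 leukocyte markers passed the filter. Of 3 endothelial markers only Kdr did, and it rose from 24.9 and 20.7 to 55.7 and 49.1 in oxaliplatin and to 62.7 and 50.1 in cisplatin cells.

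Long noncoding RNAs are transcribed like messenger RNAs but carry no known long reading frame. Some act in the nucleus, as Malat1 in nuclear speckles, Neat1 as the scaffold of paraspeckles and the imprinted RNAs that keep neighbouring genes silent. Others serve mainly as carriers: snoRNA host genes release small nucleolar RNAs from their introns, which guide the chemical modification of ribosomal RNA, while many of their spliced exons are translated briefly and removed by nonsense-mediated decay. Platinum adducts block RNA polymerases, and the nucleolus, where ribosomal RNA is made, is a known site of action of oxaliplatin.

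All 157 genes passed the filter on low counts (10 counts in 2 libraries). The differences below are log2 fold changes ± SE from DESeq2, and a gene is called when its Benjamini-Hochberg adjusted p over all 14956 genes tested was below 0.05. In oxaliplatin against control 39 of the 157 genes were called (24.8%), 24 higher and 15 lower. Over all genes tested 20.2% were called, 10.7% higher and 9.50% lower, and over all genes with a mean raw count of at least 100 the share was 27.7%. In cisplatin against control 47 were called (29.9%), 22 higher and 25 lower, where 28.1% of all genes were called, 15.7% higher and 12.4% lower, and 37.5% of the genes with a mean raw count of at least 100. Scaling to total counts gave 17 higher and 33 lower in cisplatin, so the balance of directions depended on the scaling. In oxaliplatin against cisplatin 28 were called (17.8%), 18 higher and 10 lower, where 19.9% of all genes were called, 8.62% higher and 11.3% lower, and 27.2% of those above the count limit. The members' share was below that of all genes above the count limit in each contrast, a difference that was not tested. The median log2 fold change of the 157 genes was 0.034 in oxaliplatin and 0.033 in cisplatin, beside -0.003 and -0.001 for all genes tested. Leaving out 1 library lowered these counts, to 22 without control 1 or control 2 and 21 without oxaliplatin 1 or oxaliplatin 2 in the first contrast, to 19 to 28 whichever library was left out in the second, and to 10 or 11 without any 1 of the drug libraries in the third. A total of 91 of the 157 genes were called in no contrast. With 2 libraries in each group no permutation test over libraries can pass 0.05.

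**Figure D1:**
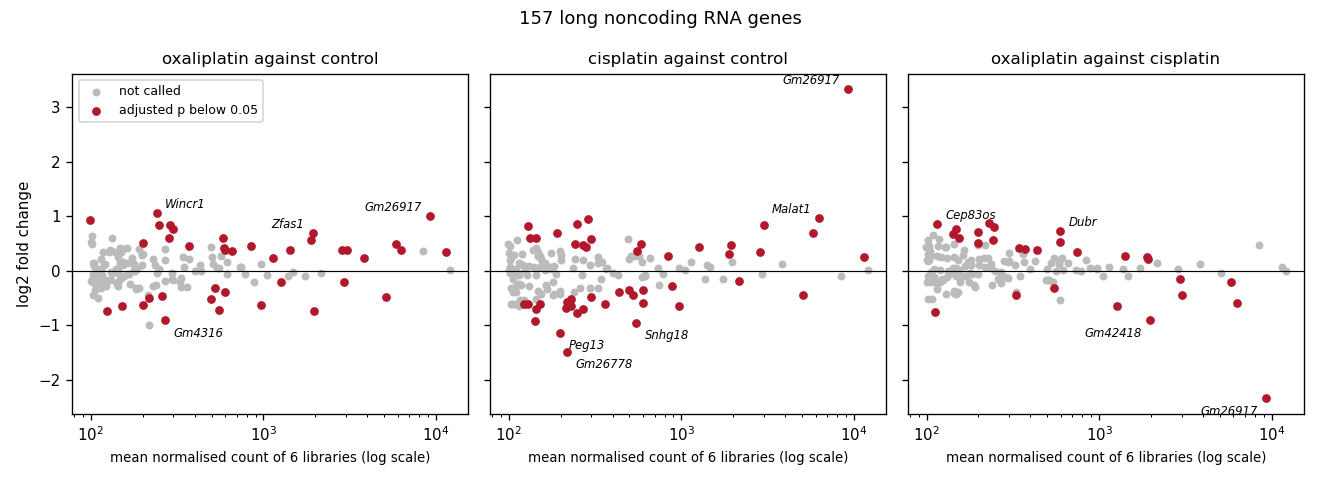
Log2 fold change (vertical axis) of each of the 157 genes against its mean normalised count over 6 libraries (horizontal axis, log scale) in the 3 contrasts, with called genes in red. Most genes lie within 1 log2 unit of 0, and Gm26917 stands apart at 3.33 in cisplatin against control and -2.33 in oxaliplatin against cisplatin.

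Most of the called snoRNA host genes rose. These are 22 of the 157 genes, defined as those whose span wholly contains a snoRNA gene on the same strand. They hold 66 annotated snoRNA genes, where Snord80 of Gas5 and Snora16a of Snhg12 are annotated more than once at overlapping positions. In oxaliplatin cells 9 hosts rose and 2 fell, with a median log2 fold change of 0.244. Thus 11 of 22 were called, beside 20.2% of all genes tested and 27.7% of those above the count limit. In cisplatin cells 9 rose and 2 fell as well, with a median of 0.264. This was 11 of 22, beside 28.1% of all genes and 37.5% of those above the count limit. Between the drugs 3 were higher and 1 lower in oxaliplatin cells, and the median was 0.046. Here 19.9% of all genes and 27.2% of those above the count limit were called. Whichever of the 6 libraries was left out, 7 hosts were called in cisplatin cells, and without any 1 of the drug libraries 2 differed between the drugs. The hosts took 0.184% and 0.181% of all counts in control, 0.213% and 0.209% in oxaliplatin and 0.201% in both cisplatin libraries. Among the 135 genes that are not hosts 15 rose and 13 fell in oxaliplatin cells, and 13 rose and 23 fell in cisplatin cells.

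**Figure D2:**
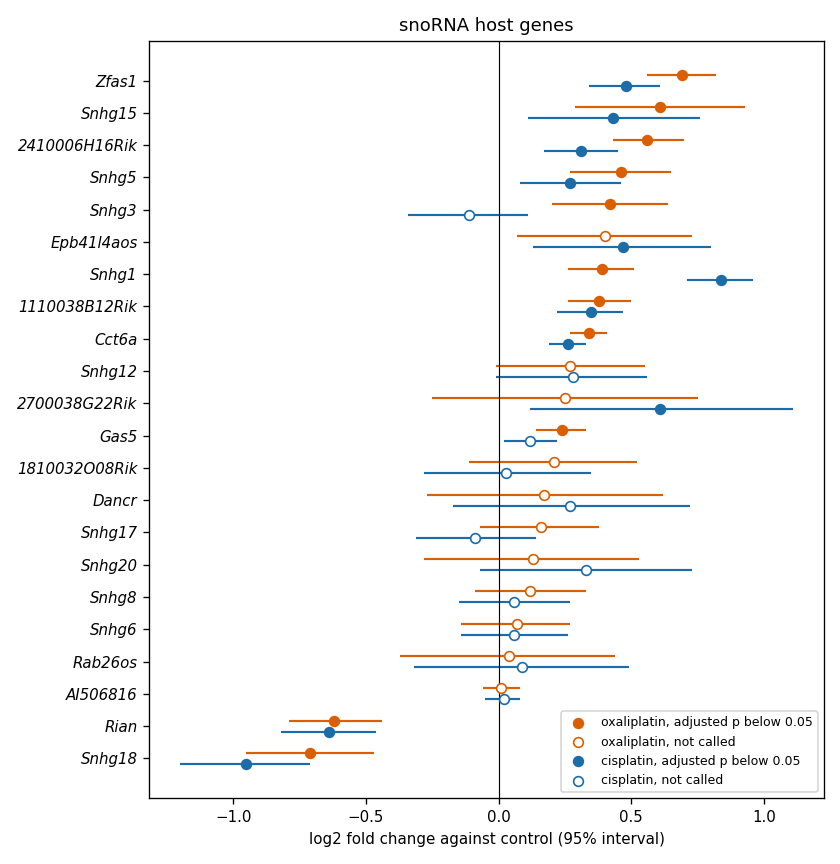
Log2 fold change against control of the 22 snoRNA host genes (vertical axis, italic) with 95% intervals (horizontal axis), oxaliplatin in orange and cisplatin in blue, filled where called. Only Rian and Snhg18 lie below 0 with both intervals, and Snhg1 and Snhg3 show the widest separation between the drugs among called hosts.

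Zfas1 (chromosome 2, 167062934 to 167065862, plus strand, GRCm38), hosts 3 snoRNA genes, among them Snord12, and its exons overlap those of the coding gene Znfx1 on the opposite strand by 82 bp. Its normalised counts were 1468 and 1426 in control, 2352 and 2316 in oxaliplatin and 1994 and 2030 in cisplatin cells. The 3 groups did not overlap, with oxaliplatin highest. Zfas1 rose by 0.69 ± 0.07 in oxaliplatin (adjusted p = 3.11e-23) and by 0.48 ± 0.07 in cisplatin cells (adjusted p = 3.18e-11). The difference between the drugs, 0.21 ± 0.06, was called (adjusted p = 0.00586), but this call was lost when any 1 of the 4 drug libraries was left out (adjusted p up to 0.237). Znfx1 was not called, with 809 and 841 in control, 828 and 776 in oxaliplatin and 873 and 901 in cisplatin cells.

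2410006H16Rik (chromosome 11, 62602877 to 62604807, plus strand) hosts Snord49b, Snord49a and Snord65 and had the second highest control level per kb of exon among the 157 genes, 3288 normalised counts. It had 1575 and 1463 normalised counts in control, 2253 and 2240 in oxaliplatin and 1886 and 1878 in cisplatin cells. Again the groups were separate in the same order. The rise was 0.56 ± 0.07 in oxaliplatin (adjusted p = 3.65e-14) and 0.31 ± 0.07 in cisplatin cells (adjusted p = 9.78e-05), and the difference between the drugs, 0.26 ± 0.07, was called (adjusted p = 0.00163) but lost when any 1 drug library was left out (adjusted p up to 0.124).

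The snoRNAs of these hosts, which a poly(A) library does not measure, are shown because they are what the host genes are known for. They are box C/D snoRNAs, and the capitals mark the C box (TGATGA) and the D box (CTGA) that bind the shared core proteins. The sequences are those of GENCODE M21 transcripts on GRCm38, given as DNA from the transcribed strand. Positions are chr2:167063473-167063565, chr2:167064998-167065086 and chr2:167065276-167065365 for those in Zfas1, and chr11:62603079-62603150, chr11:62603450-62603521 and chr11:62604515-62604586 for those in 2410006H16Rik, all on the plus strand.
Gm25878 (Zfas1): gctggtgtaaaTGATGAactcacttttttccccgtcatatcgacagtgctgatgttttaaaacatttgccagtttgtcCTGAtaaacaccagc
Gm23201 (Zfas1): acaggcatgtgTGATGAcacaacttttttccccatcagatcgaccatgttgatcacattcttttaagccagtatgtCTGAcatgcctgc
Snord12 (Zfas1): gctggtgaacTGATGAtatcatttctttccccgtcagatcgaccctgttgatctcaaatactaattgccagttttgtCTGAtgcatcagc
Snord49b (2410006H16Rik): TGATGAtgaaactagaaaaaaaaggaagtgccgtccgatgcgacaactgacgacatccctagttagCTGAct
Snord49a (2410006H16Rik): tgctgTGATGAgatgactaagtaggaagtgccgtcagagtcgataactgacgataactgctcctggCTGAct
Snord65 (2410006H16Rik): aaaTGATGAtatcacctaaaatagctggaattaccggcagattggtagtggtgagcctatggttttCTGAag

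Of the 65 snoRNA sequences read, 34 held both boxes near their ends (TGATGA beginning in the first 15 bases, CTGA in the last 20). The others include the longer box H/ACA kind, such as Snora73a and Snora73b of Snhg3, and the lengths ran from 60 to 205 bases. The capital letters mark exact matches only, so a box with a base exchanged is not counted.

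Snhg1 (chromosome 19, 8723475 to 8726443, plus strand) was the host with the largest rise in cisplatin cells. Its values were 2297 and 2149 normalised counts in control, 2993 and 2818 in oxaliplatin and 4015 and 3927 in cisplatin cells. Cisplatin was here the highest group, in contrast to Zfas1. Snhg1 rose by 0.39 ± 0.06 in oxaliplatin (adjusted p = 2.24e-08) and 0.84 ± 0.06 in cisplatin cells (adjusted p = 1.96e-38), and the difference between the drugs, -0.45 ± 0.06, was called (adjusted p = 1.17e-11). Its start lies 106 bp from that of Slc3a2, which encodes the heavy chain of amino acid transporters and is transcribed the other way. Slc3a2 had 4754 and 4556 normalised counts in control, 4730 and 4653 in oxaliplatin and 6173 and 6206 in cisplatin cells. The neighbour therefore rose in cisplatin cells (0.41 ± 0.05, adjusted p = 3.19e-17) and overlapped the control in oxaliplatin cells.

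Snhg3 (chromosome 4, 132348014 to 132353686, minus strand), host of 2 copies of the U17 snoRNA needed for cutting of the ribosomal RNA precursor, rose in oxaliplatin cells only by the test. It had 565 and 528 normalised counts in control, 741 and 721 in oxaliplatin and 504 and 507 in cisplatin cells. The oxaliplatin libraries stood above the other 4, which lay close together. The log2 fold changes were 0.42 ± 0.11 in oxaliplatin (adjusted p = 0.00145) and -0.11 ± 0.12 in cisplatin cells (adjusted p = 0.506), and the difference itself, 0.53 ± 0.11, was called (adjusted p = 3.28e-05) under every alternative tried. The oxaliplatin call against control was lost without control 2, oxaliplatin 1 or oxaliplatin 2 (adjusted p up to 0.138). Rcc1, a coding gene that starts 81 bp away on the same strand and shares 135 bp of exon with Snhg3, rose in both drugs (0.25 ± 0.07 and 0.42 ± 0.07).

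Rises called in both drugs were also seen for Snhg15 (0.61 ± 0.16 and 0.43 ± 0.17), Snhg5 (0.46 ± 0.10 and 0.27 ± 0.10), 1110038B12Rik (0.38 ± 0.06 and 0.35 ± 0.06) and Cct6a (0.34 ± 0.04 and 0.26 ± 0.04), with oxaliplatin given first. The oxaliplatin call of Snhg15 was lost without control 2, oxaliplatin 1 or oxaliplatin 2 (adjusted p up to 0.165). Gas5, a growth arrest transcript with 10 annotated snoRNA genes, had 3536 and 3515 normalised counts in control, 4178 and 4124 in oxaliplatin and 3892 and 3760 in cisplatin cells. Its rise was called in oxaliplatin (0.24 ± 0.05, adjusted p = 3.36e-05) and missed the threshold in cisplatin cells (0.12 ± 0.05, adjusted p = 0.0584). The difference between the drugs in Gas5 was not called, with a 95% interval of 0.02 to 0.22. Epb41l4aos (0.47 ± 0.17, adjusted p = 0.0222) and 2700038G22Rik (0.61 ± 0.25, adjusted p = 0.0483) were called higher in cisplatin cells. These 2 calls and those of Snhg5 and Snhg15 in cisplatin cells were lost whichever of the 6 libraries was left out, which left 7 called hosts (adjusted p up to 0.317, 0.463, 0.302 and 0.281 over the alternatives).

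Not called in any contrast were AI506816, Snhg6, Snhg8, Snhg12, Snhg17, Snhg20, Dancr, Rab26os and 1810032O08Rik. AI506816 had the highest mean raw count of the hosts and hardly varied, with 11904 to 12251 normalised counts in the 6 libraries. Its 95% intervals were -0.06 to 0.08 in oxaliplatin and -0.05 to 0.08 in cisplatin cells.

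AI506816 and 2700038G22Rik lie 137929 bp apart on chromosome 5, on opposite strands. Their snoRNA genes, which GENCODE names Mir3096 and Snord93, differ at 1 of 71 bases, and their promoter entries share 232 of 299 bases. The 2 sequences are shown so that the likeness can be seen, with the D box in capitals (chr5:23710991-23711061, minus strand, and chr5:23852210-23852280, plus strand).
Mir3096 (AI506816): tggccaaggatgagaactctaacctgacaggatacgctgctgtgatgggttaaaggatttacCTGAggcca
Snord93 (2700038G22Rik): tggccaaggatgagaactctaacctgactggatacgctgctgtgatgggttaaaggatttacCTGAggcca

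Reads from such copies are divided among genes by estimation, and not all values of either gene were whole numbers. The value of 2700038G22Rik, with 104 and 129 normalised counts in control and 159 and 197 in cisplatin cells, is therefore uncertain beside the 11904 to 12251 of AI506816.

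Many snoRNA hosts and ribosomal protein genes are known to begin with a terminal oligopyrimidine tract, a C followed by a run of pyrimidines that ties their translation to growth signals. In the RefSeq promoter table (GRCm38.p6, 250 bases before and 50 after each start) 96 of the 157 genes and 19 of the 22 hosts were matched by symbol. A C followed by at least 4 pyrimidines began within 5 bases of the annotated start in 9 of 19 hosts (47.4%), in 18 of the other 77 matched genes (23.4%) and in 18.3% of all 32851 promoter entries. The tract was found in 1110038B12Rik, 2410006H16Rik, Snhg3 and 2700038G22Rik, which rose in at least 1 drug, in Snhg18, which fell, and in Snhg8, Snhg12, Rab26os and AI506816, which were not called. The start in the RefSeq entry lay 179 bp from the GENCODE start for Gas5, 32 bp for Snhg5 and up to 93011 bp among the 96 genes, so that the absence of a tract describes only these windows. The windows of 6 hosts from 20 bases before the start are shown for comparison, with the tract in capitals (chr11:62602857-62602906 plus, chr17:34952442-34952491 minus, chr4:132353657-132353706 minus, chr3:123508307-123508356 minus, chr15:32244633-32244682 minus and chr2:167062914-167062963 plus).
2410006H16Rik: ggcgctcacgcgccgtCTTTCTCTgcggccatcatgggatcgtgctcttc
1110038B12Rik: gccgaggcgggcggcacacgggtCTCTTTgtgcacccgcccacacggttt
Snhg3: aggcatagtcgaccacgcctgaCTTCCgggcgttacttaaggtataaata
Snhg8: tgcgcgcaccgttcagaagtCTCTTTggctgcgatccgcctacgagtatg
Snhg18: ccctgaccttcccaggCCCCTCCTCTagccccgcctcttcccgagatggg
Zfas1: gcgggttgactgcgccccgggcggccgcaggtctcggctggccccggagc

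Zfas1, which rose most in oxaliplatin cells among the hosts, has no such tract in this window, whereas Snhg18, which fell most, has the longest of the 9 with 10 bases. In the same table the E box CACGTG was found in 10 of 96 matched genes (10.4%, and 7.15% of all entries), TGANTCA, the motif of AP-1, in 8 (8.33%, and 7.81%) and TGACGTCA, the motif of CREB and ATF factors, in 3 (3.12%, and 1.79%), with both strands searched. In 1 gene the CACGTG and TGANTCA matches overlap. Snhg15 was the only host with CACGTG and also the only one with TGACGTCA.

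Genes for the proteins that work with snoRNAs were followed too. Of 14 genes for snoRNP proteins and their assembly factors, all of them tested, 11 rose and 0 fell in each drug against control (median log2 fold changes 0.36 and 0.25), beside 10.7% of all genes called higher in oxaliplatin and 15.7% in cisplatin cells. Nop56, a core protein of box C/D particles, had 6110 and 5963 normalised counts in control, 9092 and 8884 in oxaliplatin and 8162 and 8354 in cisplatin cells. Nolc1, which shuttles these particles in the nucleolus, had 5411 and 5549 in control, 7958 and 7719 in oxaliplatin and 9320 and 9680 in cisplatin cells. The libraries of the drug groups lay above the control libraries for both genes. Nop56 rose by 0.57 ± 0.04 and 0.45 ± 0.04 and Nolc1 by 0.52 ± 0.04 and 0.79 ± 0.04, and Nop58 and Nhp2 rose too (0.41 ± 0.05 and 0.33 ± 0.05, 0.39 ± 0.08 and 0.60 ± 0.08).

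Genes of RNA decay, which removes spliced host transcripts, are given beside 20.2% and 28.1% of all genes tested called in oxaliplatin and cisplatin cells. Of 14 genes for factors of nonsense-mediated decay 2 rose and 0 fell in oxaliplatin cells, and 6 rose and 1 fell in cisplatin cells (medians 0.12 and 0.15). Smg5, which acts on the central decay factor after it is phosphorylated, rose by 0.58 ± 0.05 and 0.47 ± 0.05, and Eif4a3, of the exon junction complex, by 0.16 ± 0.05 and 0.17 ± 0.05. Nbas fell by 0.45 in cisplatin cells (SE 0.09, adjusted p = 1.42e-05). Of 16 genes of the nuclear exosome and its cofactors 5 rose and 1 fell in each drug (medians 0.19 and 0.07), with Exosc2, a cap subunit, at 0.67 ± 0.07 and 0.57 ± 0.07 and the helicase gene Mtrex at 0.36 ± 0.06 and 0.21 ± 0.06.

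Snhg18 and Rian were the 2 hosts that fell. Snhg18 (chromosome 15, 32240565 to 32244662, minus strand), with a single snoRNA gene, had 754 and 795 normalised counts in control, 446 and 500 in oxaliplatin and 414 and 388 in cisplatin cells. All drug libraries lay below both control libraries, and cisplatin was lowest. Its log2 fold changes were -0.71 ± 0.12 (adjusted p = 1.57e-07) and -0.95 ± 0.13 (adjusted p = 1.09e-12), and the drugs were not called different (95% interval -0.01 to 0.49). The coding gene Sema5a, a semaphorin whose start lies 148 bp away on the opposite strand, had 219 and 237 normalised counts in control, 223 and 192 in oxaliplatin and 130 and 95.2 in cisplatin cells. It fell in cisplatin cells (-1.02 ± 0.23, adjusted p = 9.29e-05), whereas in oxaliplatin cells its libraries overlapped the control (-0.14 ± 0.22).

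Rian (chromosome 12, 109603940 to 109661716, plus strand) hosts 13 annotated snoRNA genes and several microRNAs and lies 32213 bp downstream of Meg3 in the imprinted Dlk1-Dio3 region, where both are expressed from the maternal copy. Rian had 1256 and 1277 normalised counts in control, 800 and 853 in oxaliplatin and 792 and 832 in cisplatin cells. Meg3, a p53-linked RNA, had 571 and 631 in control, 412 and 434 in oxaliplatin and 477 and 465 in cisplatin cells. Both drugs lay below control for both genes, and for Rian the drug groups overlapped each other. The falls were -0.62 ± 0.09 and -0.64 ± 0.09 for Rian (95% interval of the drug difference -0.16 to 0.21) and -0.51 ± 0.13 and -0.35 ± 0.13 for Meg3. Those of Rian were called under every alternative (adjusted p up to 9.25e-04), while that of Meg3 in cisplatin cells was lost whichever library was left out (adjusted p up to 0.308), and that in oxaliplatin cells without control 2 or oxaliplatin 1 (up to 0.0913).

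Peg13 (chromosome 15, 72805600 to 72810324, minus strand), a paternally expressed RNA inside an intron of Trappc9, fell as well. Its counts were 265 and 304 in control, 188 and 181 in oxaliplatin and 127 and 132 in cisplatin cells, 3 separate levels in that order. The log2 fold changes were -0.62 ± 0.19 (adjusted p = 0.00747) and -1.13 ± 0.20 (adjusted p = 2.13e-07). The oxaliplatin call was lost without control 1, control 2, oxaliplatin 1 or oxaliplatin 2 (adjusted p up to 0.240), and the difference between the drugs (0.51 ± 0.20, adjusted p = 0.0494) whichever library was left out (up to 0.378). Of the other imprinted RNAs, Kcnq1ot1, which silences genes around Kcnq1, had 163 to 191 normalised counts and Airn, which silences Igf2r, had 96.2 to 140 in the 6 libraries, and neither was called. Thus 3 of 5 imprinted members fell in each drug and 0 rose, beside 9.50% of all genes tested called lower in oxaliplatin and 12.4% in cisplatin cells. Of the 10742 genes above the count limit, 1392 and 1744 were called lower. Mirg, of the same region as Meg3, and Snhg14 had mean raw counts of 37.7 and 97.0 and lay below the limit.

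**Figure D3:**
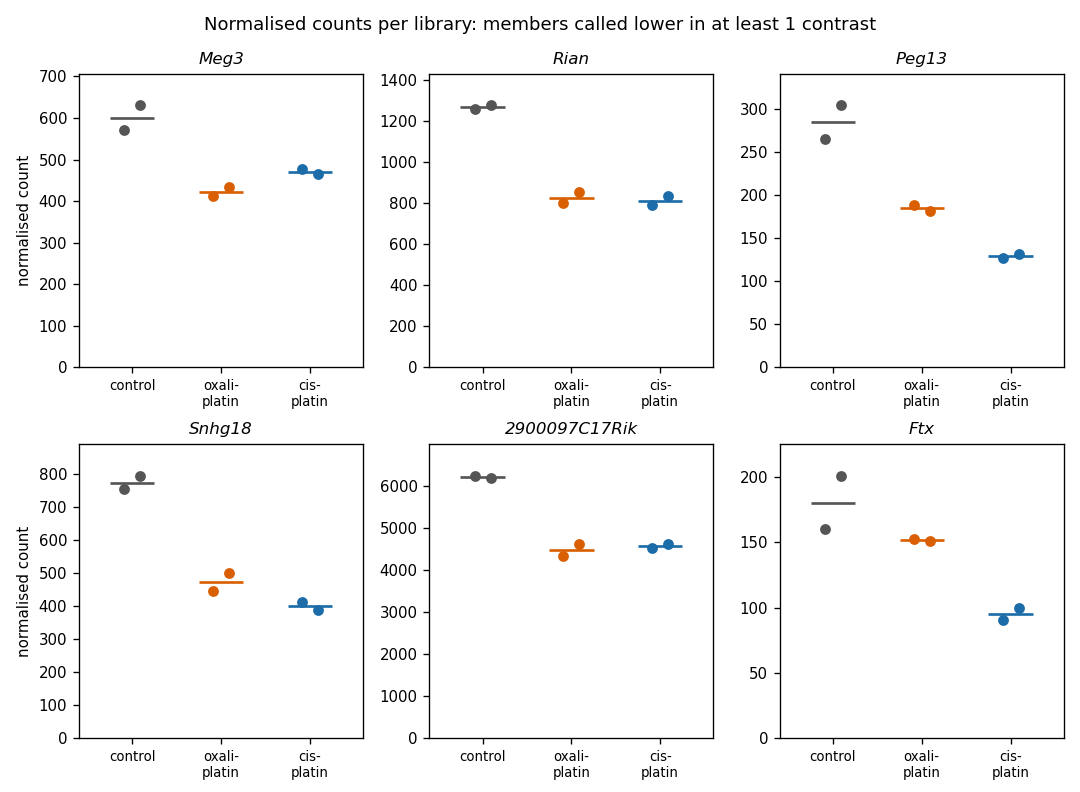
Normalised counts (vertical axes from 0) of 6 genes called lower in at least 1 contrast, with 1 point per library, a bar at the mean of 2 libraries, and groups on the horizontal axes. Rian and 2900097C17Rik show the same level in both drugs, Peg13 and Ftx are lowest in cisplatin cells.

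Malat1 and Neat1 stand next to each other on chromosome 19, with a gap of 22035 bp and both on the minus strand (5795690 to 5802672 and 5824708 to 5845478). Malat1, the abundant RNA of nuclear speckles, had 4464 and 4396 normalised counts in control, 6265 and 5327 in oxaliplatin and 9062 and 8260 in cisplatin cells. Neat1, the scaffold of paraspeckles and a p53-linked RNA, had 4211 and 4483 in control, 6183 and 6014 in oxaliplatin and 7036 and 7037 in cisplatin cells. For both genes control was lowest, cisplatin highest, and no groups overlapped. In oxaliplatin cells Malat1 rose by 0.39 ± 0.11 (adjusted p = 0.00264) and Neat1 by 0.49 ± 0.05 (adjusted p = 1.10e-21). In cisplatin cells Malat1 rose by 0.97 ± 0.11 (adjusted p = 3.49e-17) and Neat1 by 0.69 ± 0.05 (adjusted p = 3.28e-44). The drugs differed for Malat1 (-0.58 ± 0.11, adjusted p = 1.79e-06) and, by less, for Neat1 (-0.21 ± 0.05, adjusted p = 1.64e-04). The oxaliplatin call of Malat1 was lost without control 1 or control 2 (adjusted p up to 0.0921), and the drug difference of Neat1 without oxaliplatin 2 (0.0627). Malat1 and the long form of Neat1 end without a usual poly(A) tail, so that a poly(A) library captures them through internal stretches of A or through the short form.

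**Figure D4:**
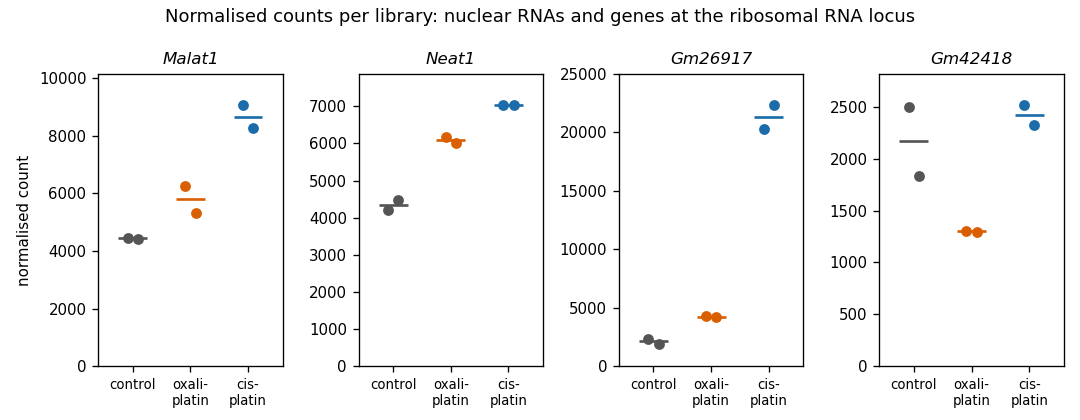
Normalised counts (vertical axes from 0) of Malat1, Neat1, Gm26917 and Gm42418, with 1 point per library and a bar at the mean of each group on the horizontal axes. Cisplatin libraries are highest for the first 3 genes, and Gm42418 is lowest in oxaliplatin cells.

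Of 14 genes for paraspeckle proteins 5 rose and 4 fell in oxaliplatin cells (median -0.02), and 5 rose and 0 fell in cisplatin cells (median 0.05), where 20.2% and 28.1% of all genes tested were called. Pspc1, one of the core proteins that bind Neat1, rose by 0.45 ± 0.07 and 0.35 ± 0.07, Tardbp by 0.15 ± 0.04 and 0.22 ± 0.04 and Hnrnpm by 0.21 ± 0.04 and 0.13 ± 0.04. The 4 that fell in oxaliplatin cells, named here after their values were seen, were Rbm14 (-0.23 ± 0.07), Matr3 (-0.16 ± 0.04), Ewsr1 (-0.14 ± 0.04) and Sfpq (-0.12 ± 0.04).

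Among the 10 nuclear RNAs with members here, 2 rose and 2 fell in oxaliplatin cells, and 2 rose and 5 fell in cisplatin cells. Over all genes tested 20.2% and 28.1% were called in either direction, and 27.7% and 37.5% of those above the count limit. Besides Meg3 and Rian, the falls in cisplatin cells were those of Ftx, Firre and Tug1. Ftx, an RNA of the X-inactivation centre, had 160 and 201 normalised counts in control, 153 and 151 in oxaliplatin and 90.2 and 100 in cisplatin cells. Firre, an X-linked RNA that anchors chromatin, had 453 and 495 in control, 481 and 470 in oxaliplatin and 368 and 358 in cisplatin cells. Cisplatin was lowest for both, and the oxaliplatin libraries of Firre lay within the range of the control. Ftx fell, with a log2 fold change of -0.92 ± 0.24 (adjusted p = 9.54e-04), a call lost without control 2 or cisplatin 1 (adjusted p up to 0.113). Firre changed by -0.39 ± 0.13 (adjusted p = 0.0156) and Tug1 by -0.19 ± 0.07 (adjusted p = 0.0146). The Firre call was lost whichever library was left out (up to 0.250), and that of Tug1 when any library other than control 1 was left out (up to 0.273). Pvt1, the neighbour of Myc, had 233 to 287 normalised counts and was not called.

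Of 7 members linked to p53 in other work 1 rose and 2 fell in oxaliplatin cells, and 1 rose and 4 fell in cisplatin cells. In these contrasts 20.2% and 28.1% of all genes tested were called, and 27.7% and 37.5% of those above the count limit. The rise was that of Neat1. 2900097C17Rik, the mouse counterpart of NORAD, a cytoplasmic RNA that binds Pumilio proteins, had 6242 and 6187 normalised counts in control, 4342 and 4628 in oxaliplatin and 4536 and 4631 in cisplatin cells. Drug and control libraries were far apart while the drugs overlapped. The falls were -0.47 ± 0.05 (adjusted p = 2.86e-19) and -0.44 ± 0.05 (adjusted p = 5.85e-17), called under every alternative.

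The microRNA hosts were 11 of the 157 genes. In oxaliplatin cells 1 rose and 2 fell, and in cisplatin cells 0 rose and 5 fell, with Rian and Meg3 among the falls in both. Over all genes tested 20.2% and 28.1% were called, and 27.7% and 37.5% of those above the count limit. Only the host transcripts were measured. RefSeq entries (GRCm38.p6) were matched for 10 of the 11 hosts and hold 36 mature microRNAs with 34 different seeds, and the seed, bases 2 to 8, sets which targets a microRNA pairs with. Among these entries, those that share a seed between hosts or within one are shown with the seed in capitals, grouped by host. Selected mature microRNAs of called hosts other than Meg3 are shown too, and their amounts were not measured. For Mirlet7a-2 of 3110039I08Rik the entries gave only let-7a-2-3p, so shared seeds may be missing from this list.
miR-100-5p (3110039I08Rik): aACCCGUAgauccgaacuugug
miR-99a-5p (Mir99ahg): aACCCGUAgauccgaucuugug
miR-125b-5p (3110039I08Rik and Mir99ahg): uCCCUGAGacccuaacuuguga
miR-15a-5p (Dleu2): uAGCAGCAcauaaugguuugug
miR-16-5p (Dleu2): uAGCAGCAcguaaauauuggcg
miR-22-3p (Mir22hg): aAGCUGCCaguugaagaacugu
miR-199a-5p (Dnm3os): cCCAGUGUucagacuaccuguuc
miR-214-3p (Dnm3os): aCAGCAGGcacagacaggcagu
miR-374b-5p (Ftx): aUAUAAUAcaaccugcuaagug
miR-370-3p (Rian): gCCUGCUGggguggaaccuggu

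3110039I08Rik and Mir99ahg carry equivalent microRNAs on chromosomes 9 and 16. 3110039I08Rik had 1187 and 1324 normalised counts in control, 1727 and 1553 in oxaliplatin and 1298 and 1405 in cisplatin cells, and Mir99ahg had 104 and 116, 80.8 and 81.9, and 136 and 95.2. The first was highest in oxaliplatin cells, where the second was lowest. 3110039I08Rik rose in oxaliplatin cells (0.39 ± 0.09, adjusted p = 4.19e-04), a call lost without control 1 or oxaliplatin 1 (up to 0.107), whereas Mir99ahg was not called (-0.44 ± 0.29, adjusted p = 0.308). Dleu2, the p53-linked host of miR-15a and miR-16, was not called either (280 to 406 normalised counts).

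Mir22hg, host of miR-22 and a p53-linked RNA, had 338 and 351 normalised counts in control, 318 and 299 in oxaliplatin and 237 and 258 in cisplatin cells. Dnm3os, which lies inside Dnm3 on the other strand, had 251 and 293 in control, 225 and 222 in oxaliplatin and 186 and 193 in cisplatin cells. Both were lowest in cisplatin cells with no overlap between groups. They fell in cisplatin cells (-0.48 ± 0.16, adjusted p = 0.0117, and -0.52 ± 0.19, adjusted p = 0.0197), and both calls were lost whichever library was left out (up to 0.231 and 0.312). AL805899.1, the host of miR-31, had 170 to 225 normalised counts and was not called.

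The largest change among the 157 genes was that of Gm26917 (chromosome 17, 39843013 to 39846341, plus strand). Its normalised counts were 2359 and 1886 in control, 4286 and 4193 in oxaliplatin and 20255 and 22338 in cisplatin cells. The cisplatin libraries lay far above all others. Gm26917 rose by 1.00 ± 0.14 in oxaliplatin (adjusted p = 1.07e-10) and 3.33 ± 0.14 in cisplatin cells (adjusted p = 1.81e-117), with a drug difference of -2.33 ± 0.14 (adjusted p = 8.34e-58), all called under every alternative. The gene lies beside a copy of ribosomal RNA sequence: GENCODE annotates the ribosomal RNA gene CT010467.1 at 39846353 to 39848827 on the minus strand, which overlaps the lincRNA genes Gm42418 (plus strand) and AY036118 (minus strand), and RefSeq gives Gm42418 as another name of an 18S ribosomal RNA pseudogene.

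The 4 genes of this locus did not move together. CT010467.1 had 32796 and 47857 normalised counts in control, 59028 and 39472 in oxaliplatin and 56601 and 50415 in cisplatin cells, and was not called. AY036118 had 5698 and 9997, 12250 and 8005, and 8395 and 6270, and was not called either. Within each of the 3 groups, the library that was higher for CT010467.1 was also higher for AY036118. Gm42418 had 2501 and 1832 in control, 1305 and 1296 in oxaliplatin and 2518 and 2320 in cisplatin cells, and it was lower in oxaliplatin cells than in control (-0.74 ± 0.19, adjusted p = 6.52e-04) and than in cisplatin cells (-0.90 ± 0.19, adjusted p = 2.08e-05). The first of these calls was lost without oxaliplatin 1 or oxaliplatin 2 (up to 0.0605). The amount of ribosomal RNA carried into a poly(A) library can differ between libraries, and its part in these values was not tested. Together Gm26917, Gm42418 and AY036118 held 0.0477% and 0.0621% of all counts in control, 0.0799% and 0.0604% in oxaliplatin and 0.137% and 0.135% in cisplatin cells. The 157 genes as a whole took 0.495% and 0.513% in control, 0.564% and 0.535% in oxaliplatin and 0.613% and 0.608% in cisplatin cells. Without these 3 genes the shares were 0.447% and 0.450%, 0.484% and 0.475%, and 0.477% and 0.473%, so that both drugs lay above control with little between them.

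The other genes with the largest rises in oxaliplatin cells were Wincr1, Gm12840, 1110002L01Rik and 3300005D01Rik. Wincr1, named as a WNT-induced RNA (chromosome 4, 89050308 to 89084614, plus strand), had 159 and 164 normalised counts in control, 369 and 302 in oxaliplatin and 206 and 248 in cisplatin cells. The groups were separate, with oxaliplatin highest. It rose by 1.06 ± 0.20 in oxaliplatin (adjusted p = 1.80e-06) and 0.49 ± 0.20 in cisplatin cells (adjusted p = 0.0485), and the latter call was lost whichever library was left out (up to 0.450). The genes on either side, the miR-31 host AL805899.1 at a distance of 111786 bp and Gm12602 at 16049 bp, were not called.

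1110002L01Rik had 146 and 177 normalised counts in control, 289 and 293 in oxaliplatin and 289 and 294 in cisplatin cells. 3300005D01Rik had 180 and 186 in control, 334 and 320 in oxaliplatin and 353 and 356 in cisplatin cells. Each stood well above control in both drugs. Their log2 fold changes were 0.84 ± 0.18 and 0.85 ± 0.18, and 0.84 ± 0.16 and 0.95 ± 0.16, called under every alternative. 1110002L01Rik shares 2617 bp of exon with Kif3c, a kinesin gene on the opposite strand that was not called (-0.10 ± 0.12 in oxaliplatin cells). Gm12840 had 54.0 and 83.7, 136 and 128, and 92.2 and 102 normalised counts, and its call in oxaliplatin cells (0.94 ± 0.30, adjusted p = 0.0108) was lost without cisplatin 1 or cisplatin 2 (adjusted p up to 0.0551). Without a control or an oxaliplatin library independent filtering, which leaves low genes out of the adjustment, gave it no adjusted p, at log2 fold changes of 0.66 or more. Gm12840 met the count limit only through its oxaliplatin libraries. Its raw counts there were 147 and 125, beside 52.0 and 85.0 in control and 94.0 and 100 in cisplatin cells. The place of Gm12840 among the largest rises is therefore tied to the selection.

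The largest falls in oxaliplatin cells, beside Gm42418 and Snhg18, were those of Gm4316, C430049B03Rik and 1010001N08Rik. Gm4316 (chromosome 8, 123165255 to 123178765, plus strand) had 362 and 389 normalised counts in control, 197 and 205 in oxaliplatin and 217 and 251 in cisplatin cells. Both drugs lay below control without overlap. It changed by -0.90 ± 0.17 (adjusted p = 2.45e-06) and -0.69 ± 0.17 (adjusted p = 4.08e-04), and the cisplatin call was lost without control 2 or cisplatin 1 (up to 0.0864). C430049B03Rik fell in both (-0.74 ± 0.24 and -0.60 ± 0.24), as did 1010001N08Rik (-0.64 ± 0.23 and -0.61 ± 0.23), which overlaps 93 bp of exon of Gata6 on the opposite strand. Gata6, a transcription factor gene, fell less (-0.27 ± 0.06 and -0.38 ± 0.06). In cisplatin cells the calls of C430049B03Rik and 1010001N08Rik were lost whichever library was left out (up to 0.333 and 0.388). In oxaliplatin cells that of C430049B03Rik was lost without cisplatin 1 or cisplatin 2 (up to 0.0713) and that of 1010001N08Rik without control 2, oxaliplatin 2, cisplatin 1 or cisplatin 2 (up to 0.382). Neither was given an adjusted p when one of the remaining libraries was left out.

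In cisplatin cells the falls of Gm26778 and 4933404O12Rik were also among the 5 largest. Gm26778 shares 3805 bp of exon with the coding gene Kctd12 on the other strand and varied widely within groups, with 270 and 435 normalised counts in control, 236 and 118 in oxaliplatin and 144 and 109 in cisplatin cells. Its call (-1.48 ± 0.51, adjusted p = 0.0156) was lost without control 2, cisplatin 1 or cisplatin 2 (up to 0.237). 4933404O12Rik had 280 and 287 in control, 289 and 295 in oxaliplatin and 158 and 174 in cisplatin cells. Only the cisplatin libraries of this gene stood apart. It fell against control (-0.77 ± 0.18, adjusted p = 1.05e-04) and was higher in oxaliplatin than in cisplatin cells by 0.81 ± 0.18 (adjusted p = 5.03e-05), both under every alternative.

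The drugs moved some genes in opposite directions. Dubr, an RNA named for the Dppa2 region, had 567 and 593 normalised counts in control, 770 and 737 in oxaliplatin and 448 and 464 in cisplatin cells. Ifi30, the symbol of a lysosomal thiol reductase gene that responds to interferon, had 1198 and 1170 in control, 984 and 1057 in oxaliplatin and 1629 and 1570 in cisplatin cells. Control lay between the drugs in both genes, and no groups overlapped. The drug differences were 0.73 ± 0.11 for Dubr (adjusted p = 6.10e-09) and -0.65 ± 0.08 for Ifi30 (adjusted p = 2.52e-13), called under every alternative, as was the rise of Ifi30 in cisplatin cells (0.43 ± 0.08). Against control, Dubr changed by 0.38 ± 0.11 in oxaliplatin and -0.35 ± 0.12 in cisplatin cells, and Ifi30 by -0.21 ± 0.08 in oxaliplatin cells. The Dubr call in cisplatin cells and the Ifi30 call in oxaliplatin cells were lost whichever library was left out (up to 0.195 and 0.474), and the Dubr call in oxaliplatin cells without any 1 of its 4 libraries (up to 0.226).

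The other leading differences between the drugs were 2810402E24Rik (0.87 ± 0.19), Cep83os (0.86 ± 0.26) and Gm17501 (0.77 ± 0.23), higher in oxaliplatin cells, and D330041H03Rik (-0.75 ± 0.27), lower. 2810402E24Rik had 231 and 257 normalised counts in control, 273 and 298 in oxaliplatin and 157 and 156 in cisplatin cells, and its difference was called under every alternative (adjusted p = 3.93e-05). Cep83os, which starts 78 bp from the centriole gene Cep83, had 128 and 118, 137 and 149, and 87.2 and 70.6, while Cep83 was not called. Cisplatin was lowest in both genes. D330041H03Rik had a control mean of 101 normalised counts, close to the count limit. Its log2 fold changes against control, neither called, were -0.20 in oxaliplatin and 0.56 in cisplatin cells. The place of D330041H03Rik among these differences may therefore be tied to the selection. Without any 1 of the drug libraries Cep83os and D330041H03Rik were given no adjusted p, at log2 fold changes of 0.72 to 1.02 and -0.92 to -0.56. The call of D330041H03Rik was also lost without control 1 or control 2 (up to 0.0736). That of Gm17501 was lost without oxaliplatin 2 (0.0858), and the gene was given no adjusted p without any other drug library (0.66 to 0.89).

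Gm17501 starts 331 bp from Ccn1, a gene for a matrix-associated growth protein, on the opposite strand. Gm17501 had 150 and 135 normalised counts in control, 203 and 175 in oxaliplatin and 102 and 120 in cisplatin cells. Ccn1 had 2839 and 2980, 5430 and 5198, and 4180 and 4447. In cisplatin cells the coding gene stood above control while Gm17501 stood below it. Ccn1 rose in both drugs (0.87 ± 0.06 and 0.57 ± 0.06).

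**Figure D5:**
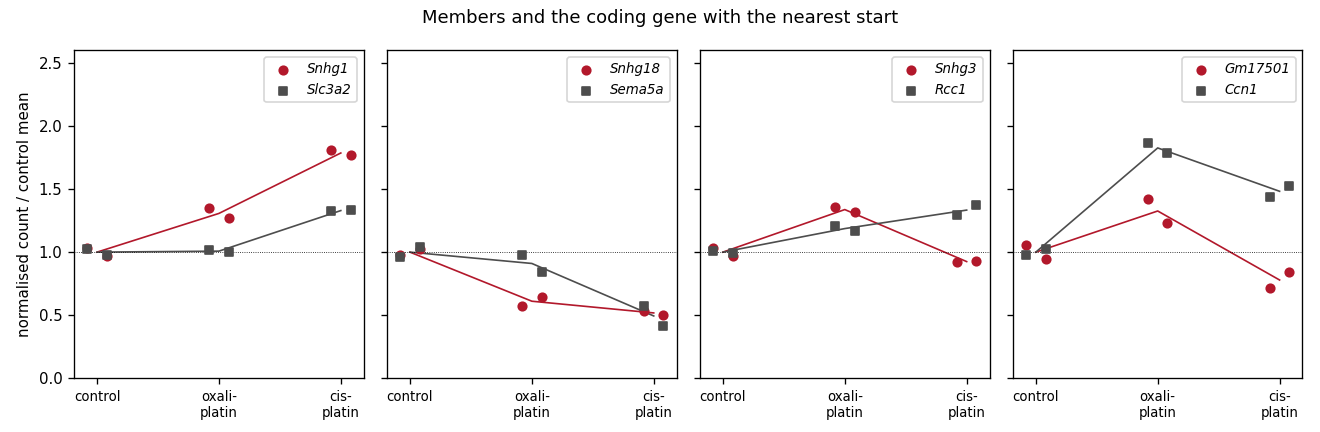
Normalised counts divided by the control mean (vertical axis from 0) of 4 members (circles) and the coding gene with the nearest start (squares), with 1 point per library, lines through group means, and groups on the horizontal axis. Snhg1 and Slc3a2 both rise in cisplatin cells and Snhg18 and Sema5a both fall, whereas Snhg3 and Gm17501 lie below their neighbours there.

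Across all pairs, 48 genes overlapped a tested coding gene on the opposite strand and 26 more started within 5 kb of one. Of the 10 overlapping genes called in oxaliplatin cells, 5 had a called partner, 3 in the same direction. Of the 12 called in cisplatin cells, 3 had one, 2 in the same direction. Over all coding genes with a mean raw count of at least 100, 28.2% were called in oxaliplatin cells. In cisplatin cells 38.1% were called, and between the drugs 27.8%. Whether partners were called more often than these shares was not tested. Of the 26 with a near start, 6 and 5 were called and 1 and 2 had a called partner, in each case in the same direction. As a description across genes, which are not independent, Pearson's r between the log2 fold changes of members and partners was 0.30 and 0.37 for the 48 overlapping pairs and 0.61 and 0.41 for the 26 near pairs (oxaliplatin and cisplatin). Between the drugs r was lower, at 0.23 and 0.13, and 0 of 7 called overlapping genes and 2 of 5 called near ones had a called partner, the latter in the same direction. Exons of 49 genes overlap coding exons on the opposite strand and those of 12 on the same strand, and values of such genes are uncertain, since no source used here states whether counting used strand.

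The called genes outside those named were 6 higher (0.24 to 0.76) and 5 lower (-0.49 to -0.20) in oxaliplatin cells, 6 higher (0.37 to 0.82) and 8 lower (-0.70 to -0.27) in cisplatin cells, and 5 higher (0.34 to 0.72) and 3 lower (-0.45 to -0.14) between the drugs. Gene span had no visible relation to the change among the 157 genes, with a Spearman's rho across genes of -0.07 in oxaliplatin and -0.09 in cisplatin cells. Among 10283 coding genes with a mean raw count of at least 100 it was -0.02 and -0.18. Between the drugs rho was 0.02 among the 157 genes and 0.21 among the coding genes. The median span was 8979 bp in the long noncoding and 25318 bp in the coding genes. Control levels per kb of exon ran from 1.55 to 8502 with a median of 80.4 normalised counts.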

How the data were processed

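Poly(A) RNA of TRAMP-C2 cells was sequenced from 6 libraries, 2 per group. The authors deposited 1 table of RSEM expected counts per gene, which need not be whole numbers because reads that match several genes are divided by estimation. The submitters' processing notes name STAR 2.5.3a, RSEM 1.3.0 and GRCm38.p6, and no strand setting is given in the sources used here. The study's methods describe another pipeline for its cell line data, with featureCounts and an earlier GENCODE release on GRCm38, and whether that annotation was used for the deposited table is not stated. Gene classes, positions and exons were taken from GENCODE M21, which matched 54409 of 54446 identifiers after the version was removed. All 6 columns were mapped by name, and 0 columns were left unused.

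Expected counts were rounded, and 14956 genes that reached 10 counts in 2 or more libraries entered the test. A single DESeq2 1.42.0 model (R 4.3.3) covered the 6 libraries, with group as its only term and two-sided Wald tests, Benjamini-Hochberg adjustment over all genes tested, independent filtering at 0.1 and a threshold of 0.05. Total counts of 21345312 to 24041767 gave size factors of 0.9637 to 1.077, and normalised counts are counts divided by these factors. The intervals given are 1.96 SE on either side of the log2 fold change.

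The members and the gene lists were chosen with earlier results of these data known. Genes were named when they host a snoRNA or microRNA, belong to the lists of nuclear, imprinted or p53-linked RNAs, or are among the 5 largest called changes per direction and contrast. Of each protein list the 3 genes with the smallest adjusted p per contrast could be named. Neighbours, marker genes and the genes of the ribosomal RNA locus were added because a result turns on them. The coding neighbour of a member is one that overlaps it on the opposite strand or starts within 5 kb.

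Alternatives were edgeR 4.0.16 (quasi-likelihood test), TMM and total-count scaling, other count filters, no independent filtering, the replicate number as a block, only the 4 libraries compared, and leaving out each library. The scripts were tested on simulated data. Part of the marker check is not reported here.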

Additional observations from a re-analysis of the deposited data

How the results depend on the processing

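Of 81 calls named in a contrast, 41 held under all 14 alternatives and 40 were lost under at least 1. DESeq2 gave 7 of the 40 no adjusted p in some fits that left out a library, and those fits were not counted as losses. With edgeR's quasi-likelihood test 60 of the 157 genes were called in oxaliplatin against control, 79 in cisplatin against control and 50 in oxaliplatin against cisplatin, in place of 39, 47 and 28, and 8 snoRNA hosts were called between the drugs in place of 4. When 1 library was left out the counts ranged from 21 to 28, from 19 to 28 and from 10 to 19 for the 157 genes, and from 9 to 11, from 7 to 7 and from 2 to 4 for the snoRNA hosts, in the same order of contrasts. In these fits a group with 1 library is assumed to vary like the others. With only the 4 libraries compared, 7 hosts were called in cisplatin against control. The scaling alternatives moved the median of all genes by at most 0.048 (log2) in size.

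Labels number the libraries 1 and 2 in each group, but deviations of same-numbered libraries did not move together (r = 0.0715, -0.0477 and -0.191 over 10731 genes), so the numbers were not taken as pairs. With the replicate block 26, 28 and 12 of the 157 genes and 11, 7 and 3 of the snoRNA hosts were called.

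The direction turned in 4 uncalled values, each when 1 library was left out: Dancr between the drugs to 0.03 without cisplatin replicate 1 (range over libraries left out -0.22 to 0.03), Dleu2 in oxaliplatin to 0.06 without control replicate 2 (-0.29 to 0.06), Gm26778 between the drugs to -0.11 without oxaliplatin replicate 1 (-0.11 to 0.89), and Gm42418 in cisplatin to -0.05 without control replicate 2 (-0.05 to 0.40). The cause was not tested for any of these changes. Expected counts of genes with close copies or overlapping exons depend on how reads were divided, and with 2 libraries per group small changes in genes near the count limit were not detectable.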
